A study of Arabidopsis thaliana with 24 samples.

Results

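The genes described here stood higher in the leaf tip of Arabidopsis thaliana under both far-red light treatments. Whole-rosette far-red left their mean level in the petiole base within 0.7 log2 units of control. The genes were chosen from group means of log2 signal over probe sets that match a single gene. In the leaf tip, both local far-red (FR) minus control and whole FR minus control had to be at least 0.8. In the petiole base, whole FR minus control had to lie within 0.7 of 0 in either direction, and the highest of the 8 group means had to reach 4. Of 16746 single-gene probe sets, 79 met the rule, and the auxin-related genes IAA34 and YUC2 and the cold gene COR15A met it but were left out by name. In the whole file 200 probe sets met the thresholds, of which 111 are not listed in the annotation and 7 match several genes. Those 111 and 7 are not described here. The differences named in the rule chose the genes, so they are given as a description, with no test.

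The study measured transcripts on 24 Affymetrix arrays, in 8 groups of 3 arrays that the labels call independent biological replicates. Under local FR, the leaf tip alone received light whose ratio of red to far-red photons (R:FR) was lowered to 0.05. Under whole FR, the whole rosette received that ratio. Touch plants and control plants stayed in white light at an R:FR of 2.3, and how the touch was applied is not given in the sources used here. All plants were 28 d old, received 140 µmol of photosynthetic light per square metre and second for 9 h a day at 20 °C, and were harvested 5 h after the treatment began. Both samples came from 1 and the same fifth-youngest leaf: 2.5 mm at the top of the lamina make the leaf tip, and 1.5 mm at the bottom of the petiole make the petiole base. No genotype or accession of the plants is named in the sources used here.

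A low R:FR is the light signature of neighbouring leaves. Plants read it through phytochrome, whose inactivation by far-red frees PIF transcription factors that raise auxin synthesis genes in the blade, and auxin that moves into the petiole is known to drive its growth. Sampling both ends of 1 leaf asks which genes respond where the light falls and which respond at the far end.

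The labelled tissues were checked against marker genes. SWEET11, a sucrose transporter of leaf blades, had a mean log2 signal of 9.07 in the control leaf tip and 1.27 in the control petiole base, and the Rubisco activase gene RCA had 11.2 and 10.4. The stomatal lineage genes SPCH, MUTE and FMA, the epidermal gene FDH and the mitotic kinase gene AUR1 were the other markers measured. A listed gene counts as measured here if it has a named single-gene probe set, and the xylem and phloem lists had no such gene. Listed genes without a named probe set were not looked at. Replicate arrays of a group correlated at 0.98 to 0.992 across probe sets, so no array stood apart by this measure. Each sample mixes many cell types, so a lower signal may mean fewer cells of a type or less RNA per cell, which cannot be told apart here.

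Only 9 of the 79 genes carry a symbol of their own in the reference gene table: COR15B, KIN2, APL3, XTH32, BRH1, BETA-VPE, LCR69, CYP71B26 and GPDHC1. A further 69 have a locus name only, and FLP1 keeps the name of the array annotation. Of the 79, 78 are annotated as protein coding. The locus-named genes get no function here.

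The levels of the members spread widely, and the rule left out genes that were dim in every group. Their control tip means ran from 0.865 to 9.46, with a lower quartile of 3.24. On each of the 3 control leaf tip arrays, the median log2 signal of the 79 lay between 4.13 and 4.29, whereas the median of all single-gene probe sets lay between 2.52 and 2.73 over the 24 arrays. In the leaf tip the median of the 79 was 5.57 to 5.71 under local FR, 5.79 to 6.01 under whole FR and 4.42 to 4.76 under touch. In the petiole base it was 3.81 to 4.02 under local FR, 3.79 to 4.12 under whole FR, 4.04 to 4.49 under touch and 3.94 to 4.16 in control plants. The leaf tip groups therefore took separate ranges in the order control, touch, local FR, whole FR, while in the petiole base every pair of ranges overlapped but local FR and touch, where touch was higher. The order of touch above control was not part of the rule, although the rule favoured genes that were low on the control leaf tip arrays.

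**Figure D1:**
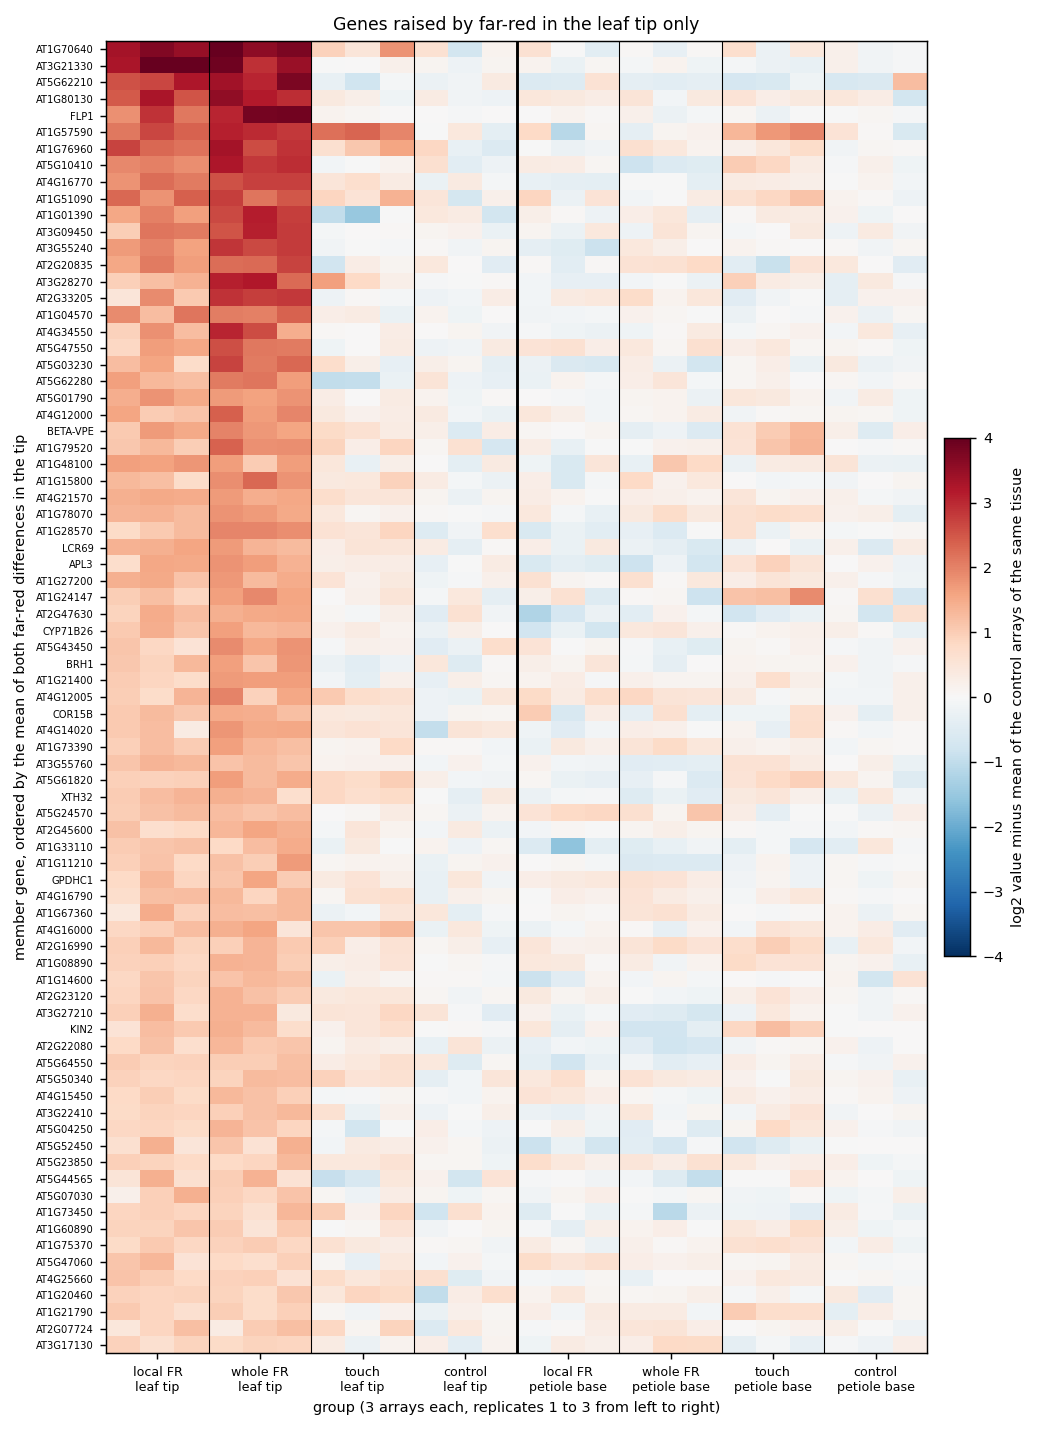
Log2 signal of each of the 79 genes on the 24 arrays, as a difference from that gene's control mean in the same tissue, with 1 row per gene (largest tip differences at the top), columns grouped by tissue and treatment, and colour from blue (lower) to red (higher). The far-red leaf tip columns are high throughout, because the rule chose the rows for it, and the touch leaf tip columns lie in between.

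In the leaf tip, local FR minus control had a median of 1.08 over the 79 genes on the log2 scale and ranged from 0.82 to 3.82, with 49 genes at 1 or more. The median over all single-gene probe sets was -0.02. Whole FR minus control had a median of 1.46 and ranged from 0.80 to 3.78, with 67 genes at 1 or more, and the median over all was -0.01. In 75 genes every local FR tip array was above every control tip array, and in 75 every whole FR tip array was. Over all single-gene probe sets those shares were 7.4% and 10.5%, and nothing is read from the gap, since the rule set it. Both held in 71 genes.

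The genes with the largest mean of both tip differences showed how far the levels reached. AT1G70640 had log2 signals of 7.32, 7.69 and 7.47 under local FR and 8.01, 7.58 and 7.75 under whole FR in the leaf tip, against 4.62, 3.25 and 4.13 in control tips. Its 3 touch tips had 4.91, 4.50 and 5.81, and all its petiole base arrays lay between 1.72 and 2.81, so its 6 far-red tips were its 6 brightest arrays. AT3G21330 had 4.46, 5.38 and 5.22 under local FR and 5.10, 4.13 and 4.65 under whole FR in the tip, against 1.31, 0.996 and 1.30 in control tips. Its touch tips, at 1.17, 1.22 and 1.41, overlapped its control tips, and its petiole base arrays stayed between 0.82 and 1.29. These low values sit near the floor of the arrays: the 5th and 25th percentiles of all signals were 1.02 and 1.33 in control tips and 0.91 and 1.18 in control petiole bases. For AT3G21330 and the 5 other genes with a control tip mean below 2 (FLP1, AT3G09450, AT3G28270, AT2G33205 and AT4G34550), the log2 difference may therefore understate the change.

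AT5G62210 had 5.77, 5.89 and 6.47 under local FR and 6.57, 6.29 and 6.98 under whole FR in the tip, against 3.00, 3.095 and 3.59 in control tips. AT1G80130 had 6.24, 7.07 and 6.29 under local FR and 7.33, 6.96 and 6.73 under whole FR, against 4.10, 3.66 and 3.60 in control tips. In both, the far-red arrays were separate from the control arrays by more than 2 units. FLP1 had 2.70, 3.74 and 2.96 under local FR and 3.91, 4.68 and 4.74 under whole FR in the tip, against 0.89, 0.82 and 0.88 in control tips. Its 3 whole FR tips were above its 3 local FR tips, and its other arrays were all near the floor.

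AT1G57590 broke from this pattern. It had 5.98, 6.52 and 6.22 under local FR and 6.96, 6.85 and 6.70 under whole FR in the tip, and its touch tips reached 6.07, 6.19 and 5.80, against 3.83, 4.27 and 3.47 in control tips. In this gene the touch tips overlapped the local FR tips and lay above all control tips. AT1G76960 had 6.15, 5.76 and 5.62 under local FR and 6.80, 6.07 and 6.36 under whole FR in the tip, with touch tips at 4.10, 4.55 and 5.02 and control tips at 4.29, 3.16 and 2.93. Its touch values overlapped control. The other 5 of the 12 genes with the largest tip differences were AT5G10410, AT4G16770, AT1G51090, AT1G01390 and AT3G09450, with local FR minus control between 1.73 and 2.17 and whole FR minus control between 2.47 and 3.00.

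**Figure D2:**
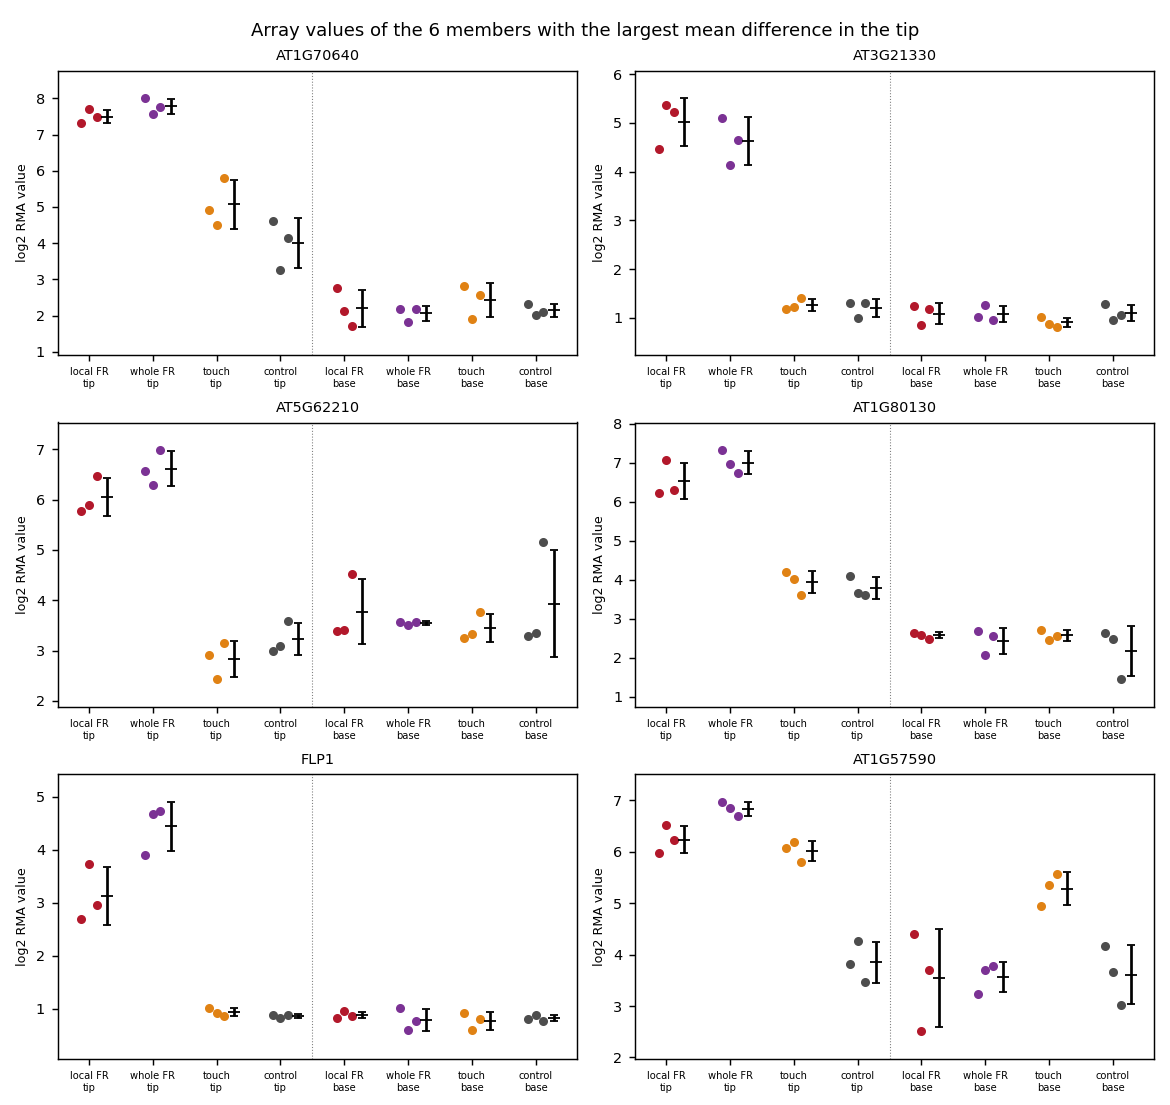
Log2 signal (vertical axis) of the 6 genes with the largest mean of both far-red differences in the leaf tip, 1 panel per gene, by treatment and tissue, with 1 coloured point per array and the mean ± SD of the 3 arrays in black beside them. Far-red tip arrays stand above control tips in all 6 panels, and AT1G57590 is the panel in which touch tips, at 5.80 to 6.19, stand beside local FR tips.

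COR15B and KIN2 are genes of the cold and abscisic acid response. COR15B encodes a chloroplast protein that protects membranes in cold plants. It had log2 signals of 9.64, 9.87 and 9.69 under local FR and 10.10, 10.05 and 9.81 under whole FR in the tip, 9.04, 9.01 and 9.05 under touch, and 8.40, 8.73 and 8.70 in control tips. Local FR and whole FR tips overlapped, both lay above all touch tips, and touch tips lay above all control tips. At the base COR15B lay between 3.57 and 5.22 on all 12 arrays. KIN2 had 9.996, 10.71 and 10.51 under local FR, 10.89, 10.74 and 10.15 under whole FR, 9.64, 9.96 and 10.13 under touch, and 9.46, 9.52 and 9.40 in control tips. At the base it had 8.47, 7.68 and 8.21 under local FR, 7.27, 7.26 and 7.65 under whole FR, 8.86, 9.24 and 8.93 under touch, and 7.995, 8.05 and 8.02 in control plants. Whole FR petiole bases were thus below control and touch petiole bases above it, with no overlap in either case.

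The list of abscisic acid and cold genes held 32 loci, of which 6 were measured: COR15A, COR15B, COR47, KIN1, KIN2 and LTI30. COR15A met the rule and was left out by name, so its tip differences, 1.30 under local FR and 1.35 under whole FR, are given with no test. COR47, KIN1 and LTI30 were read in the limma fit over all probe sets with a gene (Benjamini-Hochberg adjusted p below 0.05). Local FR raised COR47 by 1.95 (SE 0.15, adjusted p = 4.274e-08) in the leaf tip, while KIN1 and LTI30 did not pass, where 2.05% of all probe sets were called. Whole FR raised COR47, KIN1 and LTI30 in the leaf tip, by 1.12 to 2.37, where 7.91% were called. COR47 and LTI30 also met the rule's tip thresholds, and only their base differences kept them out. At the base, where whole FR gave calls for 13.3% of all probe sets, COR47, a dehydrin gene, rose by 1.13 (SE 0.15, adjusted p = 1.691e-05) and LTI30, another dehydrin gene, fell by 1.06 (SE 0.32, adjusted p = 0.02908), so genes of this list took different paths at the base. KIN2 lies next to KIN1 and COR15B next to COR15A on the chromosome, and these are close copies, so probes may share signal between them, which was not tested.

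Of the other lists, 4 of 14 auxin synthesis genes, 14 of 39 auxin response genes, 1 of 15 auxin transport genes and 4 of 28 shade and phytochrome genes were measured. None is a member, but YUC2 and IAA34 met the rule and were left out by name. By limma, local FR raised 1, 3, 0 and 1 of the measured genes in the leaf tip (YUC2, then IAA29, IAA34 and GH3.3, and FHL) and lowered PIF7. In that comparison 2.05% of all probe sets were called. YUC2 and IAA34 met the rule by these tip values, so nothing is read from their calls.

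APL3 encodes a large subunit of ADP-glucose pyrophosphorylase, the enzyme that supplies ADP-glucose for starch. In the tip it had 6.47, 7.31 and 7.28 under local FR, 7.58, 7.43 and 7.17 under whole FR, 6.003, 6.08 and 6.08 under touch, and 5.46, 5.77 and 6.11 in control plants. At the base it had 5.26, 5.49 and 5.38 under local FR, 5.05, 5.67 and 5.15 under whole FR, 6.42, 6.80 and 6.38 under touch, and 5.89, 6.06 and 5.66 in control plants. The local FR petiole bases were all below control and the touch petiole bases all above it. GPDHC1, a cytosolic glycerol-3-phosphate dehydrogenase, had 6.16, 6.69 and 6.23 under local FR and 6.49, 6.95 and 6.39 under whole FR in the tip, against 5.07, 5.82 and 5.23 in control tips. At the base its group means were 6.04 ± 0.07 under local FR, 6.18 ± 0.17 under whole FR, 5.61 ± 0.16 under touch and 5.69 ± 0.15 in control plants (SD, n = 3 each), so both far-red groups stood above the other groups there as well.

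XTH32 and BRH1 are genes tied to growth. XTH32 belongs to the enzymes that cut and rejoin xyloglucan in the cell wall, and BRH1 is a RING-H2 gene first described for its response to brassinosteroid. XTH32 had 5.35, 5.57 and 5.71 under local FR, 5.78, 5.72 and 5.03 under whole FR, 5.17, 5.01 and 5.12 under touch, and 4.32, 4.00 and 4.73 in control tips. Touch tips of XTH32 were above all control tips. BRH1 had 8.19, 8.03 and 8.41 under local FR, 8.75, 8.21 and 8.88 under whole FR, 6.88, 6.68 and 6.91 under touch, and 7.58, 6.61 and 7.17 in control tips. Its touch tips stayed within the range of control tips. Both genes were brighter at the petiole base than at the tip in every treatment: the base arrays of XTH32 lay between 6.45 and 7.47 and those of BRH1 between 8.57 and 9.41.

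BETA-VPE, a vacuolar processing protease, had 5.48, 6.14 and 5.96 under local FR and 6.42, 6.17 and 6.01 under whole FR in the tip, against 4.69, 3.91 and 4.73 in control tips. LCR69, a small cysteine-rich protein of the defensin type, had 8.69, 8.73 and 8.88 under local FR and 8.99, 8.65 and 8.57 under whole FR, against 7.61, 6.95 and 7.33 in control tips. CYP71B26, a cytochrome P450, had 6.20, 6.59 and 6.25 under local FR and 6.77, 6.43 and 6.49 under whole FR, against 4.91, 5.37 and 5.14 in control tips. In each of the 3 genes the far-red tips were all above the control tips.

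**Figure D3:**
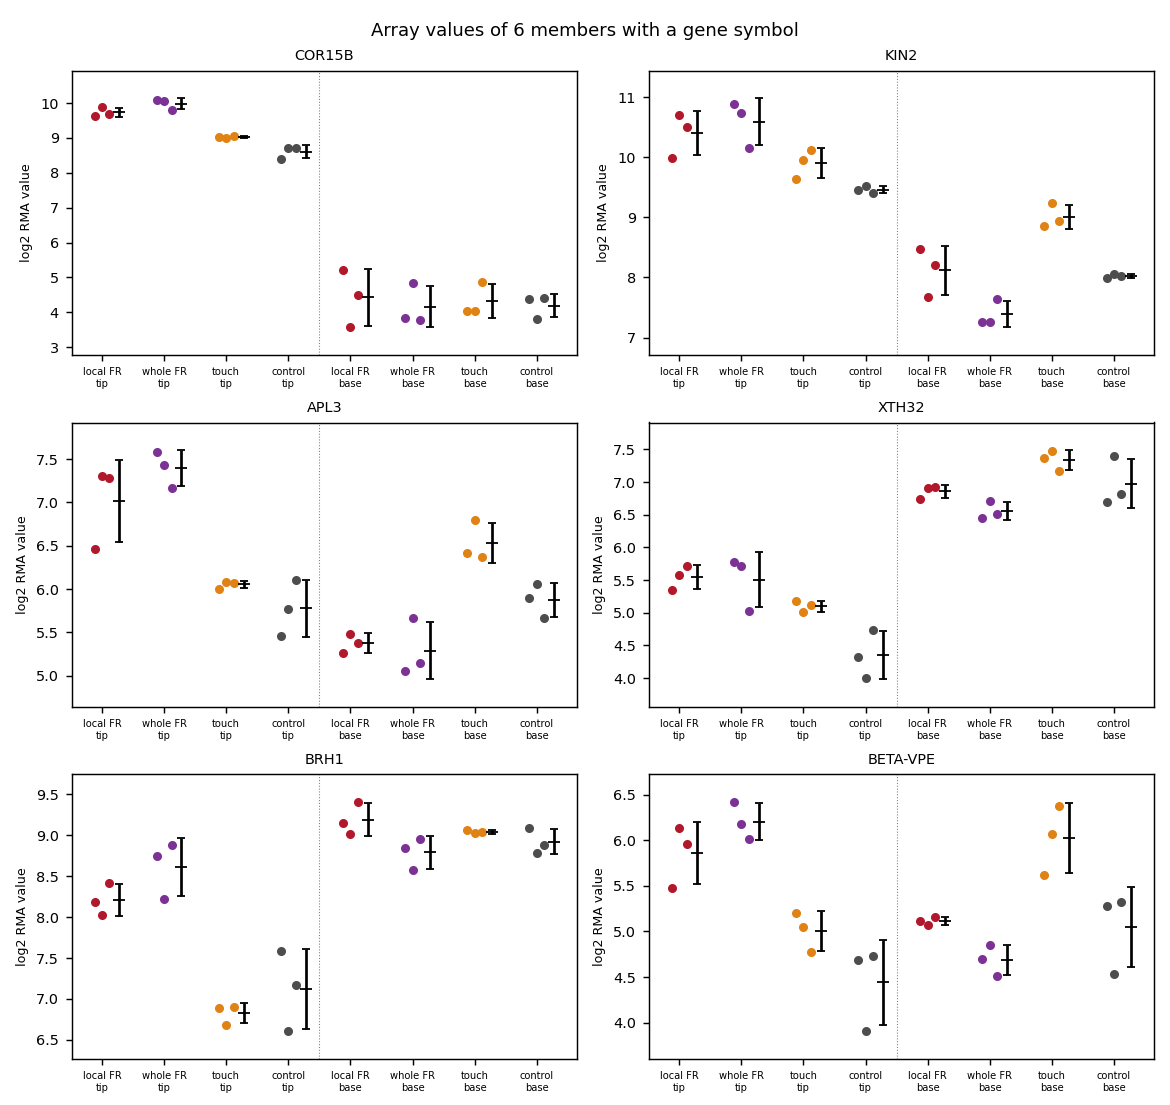
Log2 signal (vertical axis) of COR15B, KIN2, APL3, XTH32, BRH1 and BETA-VPE, 1 panel per gene, by treatment and tissue, with 1 coloured point per array and the mean ± SD of the 3 arrays in black beside them. COR15B is far brighter in the tip than at the base, XTH32 and BRH1 are brighter at the base, and KIN2 at the base is highest under touch.

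Whole FR stood above local FR in the leaf tip for most members. The whole FR mean exceeded the local FR mean in 71 of 79 genes, and whole minus local FR had a median of 0.30 over the 79, against 0.02 over all single-gene probe sets, with a range from -0.39 to 1.69. In 27 genes (34.2%) every whole FR tip array was above every local FR tip array, against 9.12% of all single-gene probe sets, and in 0 genes was it the reverse, against 7.57%. Both groups of arrays had been used to choose the genes, so this is a description with no test. AT2G33205, AT3G28270 and FLP1 had the largest differences, at 1.69, 1.68 and 1.31, and all 3 are among the genes near the floor in control tips. AT3G28270 had 4.74, 4.82 and 3.89 under whole FR in the tip and 2.58, 2.81 and 3.01 under local FR, with touch tips at 3.27, 2.41 and 1.84. At the other end stood AT3G21330 at -0.39, AT1G48100 at -0.22 and AT5G47060 at -0.20.

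Touch tips lay between control and far-red tips. Touch minus control had a median of 0.22 over the 79 genes in the tip, against -0.02 over all, and was above 0 in 67. In 20 genes (25.3%) every touch tip array was above every control tip array and in 0 every one was below, while 5.77% and 6.85% of all single-gene probe sets showed these patterns. The control tip arrays are those on which the rule asked for a low value, which by itself lifts every other tip group relative to control, so no test is given. Under the limma fit 0.246% of all probe sets were called in this comparison. The largest differences were those of AT1G57590 at 2.17, AT4G16000 at 1.17 and AT1G76960 at 1.099, and the smallest were those of AT1G01390 at -0.84, AT5G62280 at -0.73 and AT5G62210 at -0.40.

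The genes at the ends of the touch range differed in their far-red values. AT5G62280 had 6.22, 5.89 and 5.78 under local FR and 6.66, 6.71 and 6.24 under whole FR in the tip, 3.59, 3.63 and 4.33 under touch, and 5.11, 4.38 and 4.26 in control tips. AT4G16000 was the reverse case, with 4.27, 4.37 and 4.66 under local FR, 4.86, 5.01 and 3.92 under whole FR, 4.53, 4.55 and 4.73 under touch, and 3.171, 3.86 and 3.27 in control tips. Its touch mean exceeded its local FR mean by 0.17, and it was the 1 gene of 79 in which that held. In 57 genes all 6 far-red tip arrays were above all 6 control and touch tip arrays, against 1.77% of all single-gene probe sets. In 58 genes the tip means took the order control, touch, local FR, whole FR, against 7.12% of all. The rule used these tip values, so nothing is read from either count.

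**Figure D4:**
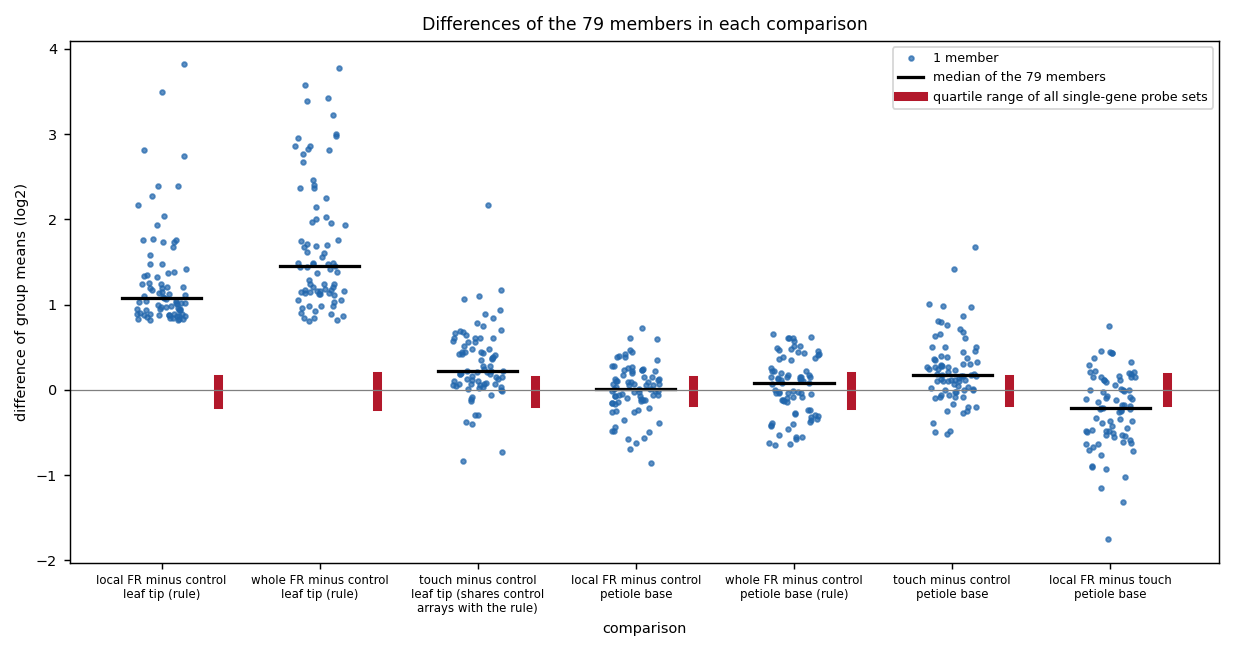
Differences of group means (log2, vertical axis) of the 79 genes in 7 comparisons, 1 point per gene, with a black line at the median of the 79 and a red bar for the quartile range of all single-gene probe sets. The tip medians against control are 1.08 for local FR, 1.46 for whole FR and 0.22 for touch, the base medians against control are 0.01, 0.08 and 0.18 in the same order, and local FR minus touch at the base has a median of -0.21.

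In the petiole base, whole FR minus control had a median of 0.08 and, by the rule, no gene beyond 0.7 in size. Within that band, in 16 genes (20.3%) every whole FR base array was above every control base array and in 8 (10.1%) every one was below, against 13.9% and 12.1% of all single-gene probe sets. The rule used these arrays, so nothing is read from these counts. KIN2 (-0.63) and APL3 (-0.58) were among the 4 lowest, and AT5G24570 (0.62) and AT4G12005 (0.61) among the 4 highest.

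The rule did not use local FR in the petiole base, the end of the leaf that received no added far-red in that treatment. Local FR minus control at the base had a median of 0.01 over the 79 genes, with 42 above 0 and 37 below, and the median over all single-gene probe sets was -0.01. Of the 79, 0 passed limma's test at an adjusted p below 0.05, while 1.06% of all probe sets were called. At an unadjusted p below 0.05 there were 15, of which 7 were higher and 8 lower under local FR, and 9.12% of all probe sets reached that level. In 7 genes every local FR base array was above every control base array and in 6 every one was below, against 6.82% and 6.37% of all single-gene probe sets. The comparison shares its control base arrays with the band the rule set on whole FR, so a difference near 0 was in part chosen. The largest differences were those of AT1G33110 at -0.86 (SE 0.27, limma adjusted p = 0.168) and AT5G24570 at 0.72 (SE 0.20, limma adjusted p = 0.1074).

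AT5G24570 had the highest local FR minus control difference at the base. It had 7.21, 7.48 and 7.50 in local FR petiole bases, against 6.66, 6.43 and 6.92 in control petiole bases, and 7.48, 7.66 and 7.76 in local FR tips, against 6.58, 6.25 and 6.64 in control tips. AT3G55240 did the opposite, with 3.25, 3.11 and 2.74 in local FR petiole bases, against 3.64, 3.47 and 3.69 in control petiole bases, and 6.78, 7.07 and 6.69 in local FR tips, against 5.12, 4.94 and 5.18 in control tips. Its difference at the base was -0.56 (SE 0.14, limma adjusted p = 0.05192). With the replicate number as a block, 2 members were called, AT3G55240 (limma adjusted p = 0.04456) and AT5G24570 (limma adjusted p = 0.03742).

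Local FR against touch in the petiole base used no array on which the rule had set a difference. The rule's level filter did use these groups. Members had to reach a group mean of 4, while all probe sets with a gene had a median of 2.75 in control petiole bases. The part of this level in the shares was not tested. Here 15 of the 79 genes (19%) were called by limma at an adjusted p below 0.05, 14 lower and 1 higher under local FR, whereas 3.81% of all probe sets were called, 2.33% lower and 1.48% higher. The median difference was -0.21 over the 79 and 0.01 over all probe sets tested, and 54 of the 79 were below 0. In 25 genes (31.6%) every local FR base array was below every touch base array, against 10.5% of all single-gene probe sets, and in 3 genes every one was above, against 10.2%.

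The largest of these differences was that of AT1G57590, at -1.75 (SE 0.34, limma adjusted p = 0.003824). It had 4.40, 2.51 and 3.70 in local FR petiole bases and 4.94, 5.35 and 5.56 in touch petiole bases, and its control petiole bases had 4.16, 3.66 and 3.01. Touch stood apart in this gene, with local FR and control overlapping. AT1G24147 differed by -1.31 (SE 0.32, limma adjusted p = 0.0195), with 1.98, 2.34 and 1.24 under local FR, 2.90, 2.96 and 3.63 under touch, and 1.78, 2.39 and 1.06 in control petiole bases. AT1G79520 differed by -1.02 (SE 0.26, limma adjusted p = 0.02555) and AT5G61820 by -0.93 (SE 0.20, limma adjusted p = 0.007499). In AT1G79520 the local FR bases had 3.501, 2.88 and 3.16, against 3.73, 4.31 and 4.54 in touch bases, and the control bases, at 3.19, 3.15 and 3.22, overlapped local FR.

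Of the named genes, 4 were called, all lower under local FR than under touch. APL3 differed by -1.15 (SE 0.21, limma adjusted p = 0.002333), and it was the member with the smallest adjusted p. BETA-VPE differed by -0.90 (SE 0.24, limma adjusted p = 0.03333), with 5.12, 5.08 and 5.16 under local FR, 5.62, 6.07 and 6.38 under touch, and 5.28, 4.54 and 5.32 in control petiole bases. KIN2 differed by -0.89 (SE 0.21, limma adjusted p = 0.01802). CYP71B26 differed by -0.70 (SE 0.16, limma adjusted p = 0.01581), with 3.67, 4.17 and 3.70 under local FR, 4.47, 4.57 and 4.62 under touch, and 4.66, 4.48 and 4.13 in control petiole bases. Here the touch arrays overlapped control, unlike in KIN2 and APL3. The 1 gene called higher under local FR was AT5G24570, at 0.75 (SE 0.20, limma adjusted p = 0.03846).

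**Figure D5:**
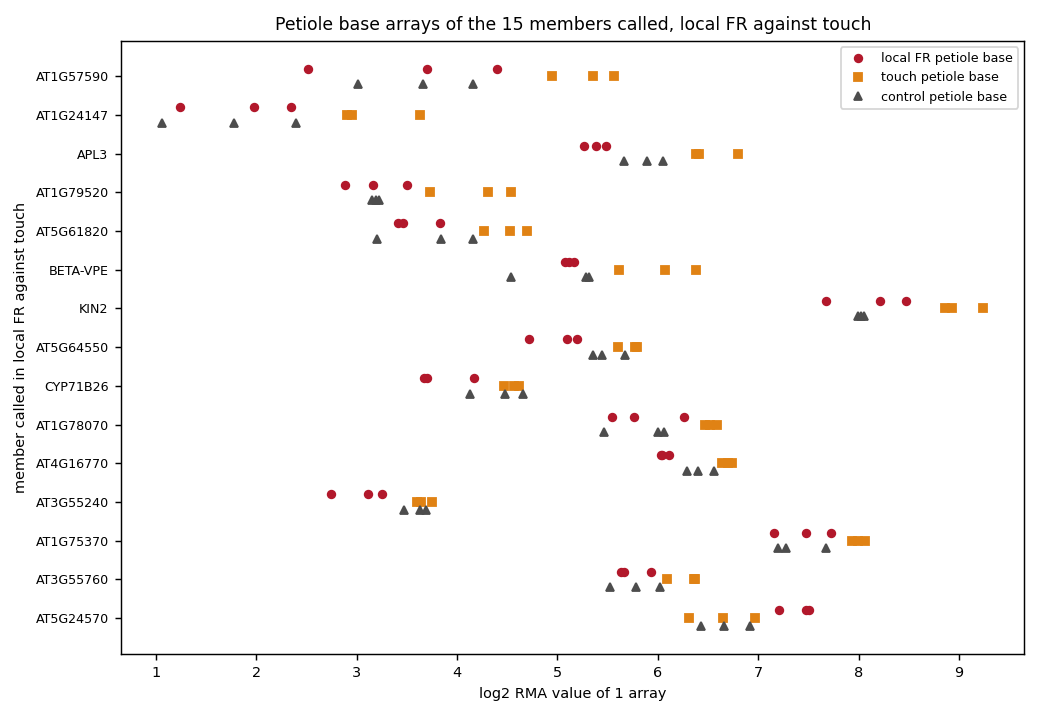
Petiole base log2 signal (horizontal axis) of the 15 genes called between local FR and touch, 1 row per gene, with 1 point per array: circles for local FR, squares for touch and triangles for control. In 11 of the 14 genes that are lower under local FR, all touch arrays lie above all control arrays, and in 4 all local FR arrays lie below all control arrays.

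Where the differences lay relative to control varied among the 14 genes. In 11 of them every touch base array was above every control base array, and in 4 every local FR base array was below every control base array, patterns that 7.32% and 6.37% of all single-gene probe sets showed. The 14 were called because touch stood above local FR, which favours both patterns. The groups compared also differed in a measure of tissue position. Each base array was scored along the tip-minus-base difference of control plants, with 0 at the control petiole base mean and 1 at the control leaf tip mean. The score was -0.01 ± 0.06 in local FR bases, with a range from -0.062 to 0.0558, and 0.11 ± 0.002 in touch bases (SD, n = 3 each), with a range from 0.111 to 0.115. In 10 of the 14 genes the control tip mean was above the control base mean. Of the 46 members brighter in the control tip than in the control base, 38 were lower in local FR bases than in touch bases, and of the 33 brighter in the control base, 16 were. Of all single-gene probe sets, 56.9% were brighter in the control tip and 48.6% were lower in local FR bases than in touch bases. The split of all probe sets by both is not given here, so nothing is read from these counts. With the petiole base arrays alone 10 members were called, and with the score added as a covariate 1 was (AT1G14600, 0 of the 15), while all 15 kept their sign and a median of 0.716 of the difference. The scores of local FR and touch bases did not overlap, so this fit cannot tell position from treatment. None of the 7 measured marker genes passed limma's test in this comparison. Local FR minus touch was 1.11 for SPCH, 0.07 for MUTE and -0.45 for FMA in the guard cell lineage, 0.59 for AUR1, 0.09 for FDH, -0.26 for RCA and 0.13 for SWEET11. The part of position in the result was not tested further.

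The number of calls also rested on single arrays. With 1 array left out at a time it was 5 to 13, and it was 5 without local FR replicate 3 or touch replicate 3, 6 without local FR replicate 2 or touch replicate 2, 9 without touch replicate 1 and 13 without local FR replicate 1. The shares of all probe sets called under these settings are not given here, so a change in the gap to them cannot be read. APL3 was called under 12 settings without a position score (the replicate block, another scaling, probe set filters, a variance trend, only the groups compared, and each array left out), with a highest adjusted p of 0.02259. With the position score its limma adjusted p was 0.1775. AT1G57590 and AT5G61820 were called under 11 of those 12, and with the score their limma adjusted p values were 0.5165 and 0.6062.

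Genes with the same tip rises outside the base band are set beside the members here. Of the 34 genes with whole FR minus control above 0.7 at the base, 8 were called higher and 1 lower under local FR than under touch, with a median of 0.38. Of the 8 genes with whole FR minus control below -0.7 at the base, 0 were called, with a median of -0.42. Over all probe sets tested, 1.48% were called higher and 2.33% lower, so nothing is read from 0 calls among 8 genes. No test of the difference between these sets was made.

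Touch against control in the petiole base gave 1 call by limma among the 79 genes, against 0.211% of all probe sets. It was AT1G57590, higher under touch by 1.67 (SE 0.34, limma adjusted p = 0.03525). At an unadjusted p below 0.05 there were 22 genes higher and 1 lower under touch, where 5.48% and 5.35% of all probe sets reached that level. The median over the 79 was 0.18, with 58 genes above 0, against -0.01 over all. In 23 genes (29.1%) every touch base array was above every control base array, and in 1 every one was below, against 7.32% and 7.42% of all single-gene probe sets. These control arrays too were shared with the rule. Next after AT1G57590 came AT1G24147 at 1.42 (SE 0.32, limma adjusted p = 0.06392) and KIN2 at 0.99 (SE 0.21, limma adjusted p = 0.0565).

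The single call in touch bases rested on few arrays. The count was 0 without touch replicate 2 or 3 or control replicate 1 or 3, 10 without control replicate 2, and 1 without touch replicate 1. Shares over all probe sets under these settings are not given here. The position score, here along the tip-minus-base difference under whole FR, was 0.079 ± 0.008 in touch bases and 0 ± 0.045 in control bases, and with it as a covariate 0 members were called. All touch bases scored above all control bases, so this fit cannot tell position from treatment either. None of the 7 measured marker genes passed limma's test between touch and control bases. Touch minus control was -2.48 for SPCH, a regulator of stomatal lineage entry, -0.07 for MUTE and 0.63 for FMA, so the guard cell lineage list gave no single direction. It was -0.92 for AUR1, 0.26 for FDH, 0.18 for RCA and 0.18 for SWEET11, and the part of these genes in the result was not tested. Of the 20 genes whose touch tips were all above control tips and the 23 whose touch bases were, 11 were the same, 55% of the first and 47.8% of the second. The matching overlap over all single-gene probe sets is not given here, and the rule used both control groups. Nothing is therefore read from this overlap.

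Touch tip against touch base shows at which end of the leaf the members stood higher in plants without added far-red, on arrays the rule did not use for a difference. The level filter left out dim genes here as well, and its part in the shares was not tested. Limma called 43 of the 79 genes, 28 higher in the tip and 15 lower, where 24.5% of all probe sets were called, 11.1% higher and 13.3% lower. The median tip minus base difference was 0.34 over the 79 and 0.05 over all probe sets tested. Members raised by far-red at the tip thus included both tip genes and base genes.

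COR15B was the member with the largest difference, higher in the touch tip by 4.72 (SE 0.31, limma adjusted p = 1.416e-10). AT4G16000 was higher by 2.83, AT1G70640 by 2.65, AT1G24147 by 2.62, AT1G76960 by 2.47 and AT5G62280 by 2.44. On the other side, AT5G07030 had 4.83, 4.54 and 5.05 in touch tips and 8.73, 8.73 and 8.94 in touch bases, a difference of -3.99 (SE 0.21, limma adjusted p = 3.687e-12). This gene is also the member that far-red left furthest below its base level, with a local FR tip mean of 5.60 beside a local FR base mean of 8.96. XTH32 differed by -2.23 (SE 0.20, limma adjusted p = 1.901e-08) and BRH1 by -2.22 (SE 0.20, limma adjusted p = 1.504e-08). AT5G64550, AT3G22410 and AT5G03230 followed at -1.81, -1.80 and -1.61. KIN2 was higher in the touch tip by 0.90 and CYP71B26 by 0.81, while BETA-VPE differed by -1.02.

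The median tip minus base difference was larger under both far-red treatments than in control plants. The rule set the tip rises and the whole FR band at the base, and it did not use local FR at the base. Under whole FR it thus made tip minus base rise in every member, and under local FR it fixed the tip part. Nothing is therefore read from the medians and counts that follow. For members that stayed brighter at the base, such a rise is a narrower gap between the ends. The median tip minus base difference was 1.602 under local FR, 1.77 under whole FR and 0.24 in control plants. The number of genes brighter in the tip was 67 under local FR, 67 under whole FR and 46 in control plants, so 12 members were still brighter at the base under each far-red treatment.

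Genes near the thresholds had values that differ by little. Just inside the local FR tip threshold of 0.8 were AT3G17130 at 0.82, AT5G04250 at 0.82 and AT5G43450 at 0.83, and just outside it were AT5G28380 at 0.79, AT3G03020 at 0.78 and UBC33 at 0.78. For whole FR in the tip, AT5G47060 at 0.80, AT4G25660 at 0.82 and AT3G17130 at 0.84 were inside, and AT5G20190 at 0.79, AT5G41460 at 0.77 and AT5G53486 at 0.77 outside. At the upper edge of the base band, AT2G20835 at 0.66, AT5G24570 at 0.62 and AT4G12005 at 0.61 were inside, and AT4G36010 at 0.71, AT5G54585 at 0.76 and AT5G22580 at 0.80 outside. These edge genes show that the thresholds cut through a continuous range. At the lower edge, AT2G22080 at -0.64, KIN2 at -0.63 and AT5G10410 at -0.63 were inside, and AT5G27930 at -0.82, AT4G16750 at -0.87 and UGT72B3 at -0.92 outside. By highest group mean, AT1G48100, AT2G45600 and AT4G14020 at 4.02, 4.03 and 4.07 were inside, and AT3G20395, AT5G12050 and FMO at 4.00, 3.95 and 3.85 outside.

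On the chromosomes the members were spread, with 27 of the 78 that have a position on chromosome 1 (34.6%, against 25.9% of all single-gene probe sets) and 10 on chromosome 3 (12.8%, against 20.4%). Of 156 neighbouring positions, counted on both sides of each member, 101 held a gene measured under a name. At 2 of these the gene is a member: AT4G12000 and AT4G12005, which lie next to each other. The other 99 had a median local FR tip difference of -0.03. They include COR15A, beside COR15B, which met the rule but was left out by name. AT4G12000 had local FR and whole FR tip differences of 1.24 and 2.01 and AT4G12005 of 1.03 and 1.48, and at the base AT4G12000 stayed at 0.18 under whole FR where AT4G12005 reached 0.61. AT4G16770 and AT4G16790 lie on either side of HB-2, a homeodomain-leucine zipper gene of the shade response that has no named probe set. Their local FR tip differences were 2.04 and 1.04 and their whole FR tip differences 2.67 and 1.15. Of the 79, 20 overlap another gene in the annotation, 18 of them a protein-coding one, and whether probes share signal there was not tested.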

How the data were processed

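The authors deposited log2 values per probe set, made by RMA in Expression Console at the core gene level, per the labels. RMA corrects background, equalises signal distributions over arrays and summarises probes, so a shift common to all genes is removed. Software version and annotation release are not given in the sources used here, and scanner files were not used here. The number of arrays, 3 per group, limits the precision.

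Of 38408 probe sets, 16746 had 1 gene in the platform annotation and 758 several. Values ran from -0.479 to 13.4. Names were updated through a RefSeq gene table, used for names and neighbours only. The 17504 probe sets with a gene were fitted in limma 3.58.1 (R 4.3.3; lmFit, eBayes) with 1 mean per group over 24 arrays and 16 residual degrees of freedom, two-sided, with Benjamini-Hochberg adjustment over all of them in each of 8 comparisons, and called below 0.05. Members were tested in 4 of these, and the other 4 (each treatment against control in the tip, whole FR against control at the base), which hold arrays the rule used, served for shares over all probe sets and for listed genes that are no members. The script was tested on simulated data. Tables and figures were made with Python 3.11.15, pandas 2.3.3 and matplotlib 3.10.9.

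The members, lists and tests were chosen with earlier results of these data known. Genes named are those with a symbol, the 12 with the largest tip differences, the 3 on each side of every threshold, up to 6 called in each direction, the 3 extremes of touch and of whole minus local FR in the tip, and list members. AT3G55240, AT1G33110, AT1G14600, the neighbouring genes and the marker genes beside a result were chosen after their values were seen. The labels do not say what a replicate number marks. Deviations of same-numbered arrays correlated at 0.10, 0.18 and 0.44 for local FR against control at the base, so the block is given there. In the other comparisons at least 1 pair was at 0.1 or below. Alternatives were the replicate block, cyclic loess, no dim probe sets (lowest 30%), all probe sets, a robust variance trend, only the groups compared, each array left out and, added after seeing the data, the position score.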

Additional observations from a re-analysis of the deposited data

Results flagged for a closer look

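In 6 genes every local FR petiole base array was below every control petiole base array, while in the leaf tip every local FR array was above every control array. Local FR minus control at the base was -0.355 for AT4G16770, -0.564 for AT3G55240, -0.432 for AT1G28570, -0.495 for APL3, -0.483 for AT5G64550 and -0.617 for AT5G52450 on the log2 scale. The opposite direction in the 2 tissues was not tested as a difference of effects, and the tip direction was fixed by the rule that chose the genes. AT5G52450 had 1.57, 2.16 and 1.69 in local FR petiole bases and 2.40, 2.43 and 2.44 in control petiole bases. AT1G28570 had 1.04, 1.42 and 1.25 in local FR petiole bases and 1.59, 1.67 and 1.75 in control petiole bases, near the floor of the arrays. The 6 genes are 7.6% of the 79, near the 6.37% of all single-gene probe sets that had every local FR base array below every control base array, so the count says nothing particular to the members.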

How the results depend on the processing

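The rule gave 84 genes after cyclic loess and 89 from group medians, of which 79 and 65 are members, 64 with a base band of 0.5, and 48 with tip differences of at least 1. With 1 array left out at a time it gave 75 to 86, and 42 members met it in all 15 cases. For local FR against touch at the base, 15 calls became 4 with only the groups compared, 5 to 13 with 1 array left out, 10 with base arrays alone and 1 with the position score. With the replicate block they stayed at 15. For local FR against control at the base, 0 calls became 2 with the replicate block, 1 after cyclic loess, 1 without dim probe sets, 1 with base arrays alone, and 0 to 1 with 1 array left out (1 without local FR replicate 1). For touch against control at the base, 1 call became 3 with the replicate block, 2 after cyclic loess, 7 with the robust trend, 0 with all probe sets, 0 with only the groups compared, 0 with base arrays alone, 0 with the position score, and 0 to 10 with 1 array left out. Its count at an unadjusted limma p below 0.05 was 23, and it was 22 with all probe sets, 22 with only the groups compared, 24 with base arrays alone and 6 with the position score. Touch tip against touch base gave 40 to 47 calls under every alternative, 44 with the replicate block, and 36 of its 43 genes were called under each. The share of all probe sets called under each alternative is not given here, so the counts do not show whether the members' excess changed. The causes were not tested. Genes named in the text kept their direction under every alternative run on them. This check covered differences already called or set by the rule, where a reversal was unlikely from the start. Nothing is therefore read from the unchanged direction. Of the 15 genes called between local FR and touch at the base, 0 were called under every alternative. With 3 arrays a group, signals near the floor and probes shared by close copies limit what can be read for single genes.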
